A study of Arabidopsis thaliana with 15 samples.

Results

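N-hydroxypipecolic acid is a signal that Arabidopsis thaliana makes from lysine, and 5 genes that make it, inactivate it or act with it in systemic immunity are described here out of 32833 genes in the count table. They were chosen by name, with earlier results of these data known. They are ALD1, SARD4 and FMO1 of its synthesis, UGT76B1 of its conjugation, and LLP1, a lectin of systemic immunity. Libraries came from the aboveground parts of Col-0 plants that were 6 weeks old when sprayed and were taken 96 h later. Mock plants received phosphate-buffered saline, and the other groups received the non-pathogenic leaf bacterium Williamsia sp. Leaf354 at 100000 (W5), 1000000 (W6), 10000000 (W7) or 100000000 (W8) CFU/ml. Each group had 3 libraries, and each library pooled 2 plants from different boxes. The plants were raised from sterilised seed on ground zeolite, and all 5 groups were of the same accession with no mutation or transgene named.

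Plants that have met a microbe on some leaves can become more resistant throughout, a state called systemic acquired resistance. Its mobile signal is built in successive steps: the aminotransferase ALD1 takes the amino group from lysine, the reductase SARD4 turns the product into pipecolic acid, and the monooxygenase FMO1 hydroxylates that to N-hydroxypipecolic acid. The glucosyltransferase UGT76B1 attaches glucose to N-hydroxypipecolic acid, and also to salicylic acid and isoleucic acid, which takes them out of use. LLP1 is a legume-type lectin required for systemic signalling alongside salicylic acid, the other main resistance hormone.

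Library totals ran from 17811560 to 21870246 counts. Levels are given as CPM, which are counts scaled to library size after correction with the trimmed mean of M values (TMM). The leaf markers RBCS1A, LHCB1.1 and RCA summed to 17100 to 28200 CPM in each library, and 3 flower markers to 1.47 to 3.74 CPM. The sum of 4 root markers was 116 to 201 CPM, with 1 to 3 of the 4 at 0. Nearly all of it was PYK10, with group means of 156 to 192 CPM. CASP1 reached at most 0.362 CPM and COBL9 0.14, and EXPA7 had 0 counts. The leaf marker sum was 17100 to 18900 CPM in the W8 libraries, below every other library, and its part in the results at W8 was not tested. On the first principal component of log2 CPM, mock replicate 3 lay at 19.4, apart from mock replicates 1 and 2 at -42.4 and -39.8 and within the W7 range of -3.94 to 25. On the second component it lay at 50, apart from the W7 libraries at -15.7 to -4.13 and above the next highest library, W8 replicate 2 at 10.9. On the first component, W8 replicate 2 lay beyond its group at 75.5, against 49.1 and 51.8. Calls that change without mock replicate 3 are given both ways.

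In the RefSeq annotation of TAIR10.1, all 5 are protein-coding genes with 1 transcript each. ALD1 (AT2G13810) lies at chr2:5768417-5772266 on the plus strand with 10 exons and 456 residues. SARD4 (AT5G52810) is a single exon at chr5:21399331-21400686 on the plus strand with 325 residues. FMO1 (AT1G19250) lies at chr1:6650476-6653195 on the minus strand with 5 exons and 530 residues. UGT76B1 (AT3G11340) lies at chr3:3556554-3558361 on the plus strand with 2 exons and 447 residues. LLP1 (AT5G03350) is a single exon at chr5:815610-816670 on the minus strand with 274 residues. The 250 bases before each annotated transcript start are shown, in the direction of the gene, with capitals marking 3 short motifs on either strand. The motifs were TTGAC, the core of the W-box bound by WRKY factors, TGACG, the core bound by TGA factors, and GAAATTT, an element bound by SARD1 and CBP60g. The windows are chr2:5768167-5768416 (ALD1), chr5:21399081-21399330 (SARD4), chr1:6653196-6653445 (FMO1), chr3:3556304-3556553 (UGT76B1) and chr5:816671-816920 (LLP1), in RefSeq TAIR10.1 sequence.
ALD1: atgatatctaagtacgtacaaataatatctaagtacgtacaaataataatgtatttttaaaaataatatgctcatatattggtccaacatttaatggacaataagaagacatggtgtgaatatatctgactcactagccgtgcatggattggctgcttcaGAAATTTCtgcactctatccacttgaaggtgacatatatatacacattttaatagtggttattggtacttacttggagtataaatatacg
SARD4: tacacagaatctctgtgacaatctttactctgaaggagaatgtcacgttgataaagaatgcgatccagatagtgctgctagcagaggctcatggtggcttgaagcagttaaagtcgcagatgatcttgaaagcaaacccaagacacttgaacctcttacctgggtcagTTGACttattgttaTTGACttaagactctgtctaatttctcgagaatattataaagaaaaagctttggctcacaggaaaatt
FMO1: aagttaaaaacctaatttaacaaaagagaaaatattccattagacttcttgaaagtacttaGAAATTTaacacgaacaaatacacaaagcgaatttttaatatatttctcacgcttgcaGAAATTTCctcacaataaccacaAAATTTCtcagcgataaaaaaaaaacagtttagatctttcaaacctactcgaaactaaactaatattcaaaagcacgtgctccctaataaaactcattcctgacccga
UGT76B1: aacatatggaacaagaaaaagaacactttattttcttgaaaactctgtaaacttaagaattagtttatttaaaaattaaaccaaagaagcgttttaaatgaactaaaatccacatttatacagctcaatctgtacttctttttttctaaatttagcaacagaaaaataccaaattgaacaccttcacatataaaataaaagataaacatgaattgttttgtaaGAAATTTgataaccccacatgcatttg
LLP1: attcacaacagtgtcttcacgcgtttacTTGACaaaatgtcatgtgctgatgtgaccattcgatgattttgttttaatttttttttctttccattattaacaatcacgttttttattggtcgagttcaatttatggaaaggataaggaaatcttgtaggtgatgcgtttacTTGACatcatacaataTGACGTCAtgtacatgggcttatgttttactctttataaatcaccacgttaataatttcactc

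GAAATTT occurred in 3 of the 5 windows, and in 12.5% of the windows of the same length before 27438 protein-coding genes. ALD1 had it on both strands, overlapping, 90 to 83 bases before the start. FMO1 had 4 matches, of which an overlapping pair on both strands spanned 131 to 124 bases before the start. UGT76B1 had 1 match, 27 to 21 bases before the start. TTGAC occurred in 2 of the 5 windows and in 44.9% of all windows. SARD4 had 2 copies, beginning 82 and 68 bases before the start, in a window that overlaps the neighbouring gene AT5G52800. LLP1 had 2 copies, beginning 222 and 79 bases before the start. TGACG occurred in LLP1 alone of the 5, as an overlapping pair on both strands 63 to 56 bases before the start, and in 18.6% of all windows. These are matches of letters, and binding was not measured.

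**Figure D1:**
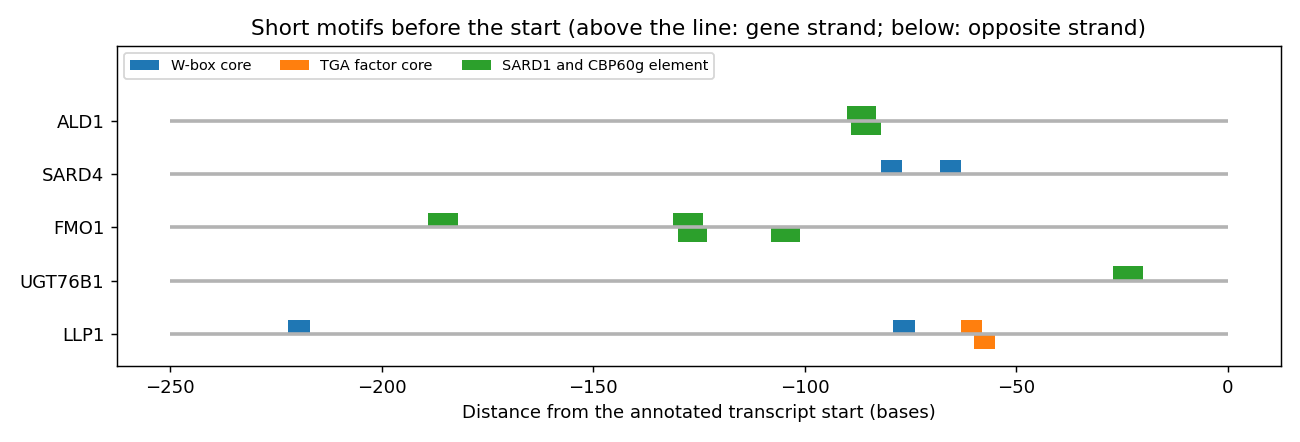
Positions of 3 short motifs in the 250 bases before the annotated transcript start of each gene, with distance from the start in bases on the x axis. Boxes above each line are matches on the strand of the gene and boxes below it on the opposite strand. GAAATTT lies in the windows of ALD1, FMO1 and UGT76B1, and TTGAC in those of SARD4 and LLP1.

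By group mean, all 5 genes were lowest at W5 and highest at W8, with the mock means raised by replicate 3. The level of ALD1, which starts the pathway, was at or near 0 in most libraries. It had 0, 0 and 23 counts in mock replicates 1, 2 and 3, 1, 0 and 0 at W5, 2, 0 and 8 at W6, 0, 17 and 36 at W7, and 35, 77 and 44 at W8. The W8 libraries were all above every library of W5 and W6 and above mock, while W7 replicate 3 lay within the W8 range. The group level was 0.35 ± 0.606 CPM in mock, 0.0167 ± 0.0289 at W5, 0.179 ± 0.23 at W6, 0.903 ± 0.976 at W7 and 2.53 ± 1.02 at W8 (mean ± SD, n = 3). All mock counts of ALD1 came from replicate 3. In whole aboveground parts, more transcript per cell and more cells with the transcript cannot be told apart, for this gene and the others.

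SARD4, which reduces the product of ALD1, had a basal level in every library. It stood at 4.08, 3.52 and 6.8 CPM in mock, 4.71, 3.95 and 3.33 at W5, 5.75, 2.57 and 5.37 at W6, 4.23, 10.3 and 14.6 at W7, and 15, 22.4 and 15.1 at W8, in replicate order. Every W8 library was above every library of the other groups, though W7 replicate 3 lay close below. The group means were 4.8 ± 1.75 CPM in mock, 3.99 ± 0.69 at W5, 4.56 ± 1.74 at W6, 9.71 ± 5.21 at W7 and 17.5 ± 4.28 at W8. SARD4 has 93.4% of its exon bases to itself, so its counts are uncertain to that extent. The rest is shared with AT5G52800 on the same strand, which stood at 0.656 ± 0.242 to 1.08 ± 0.418 CPM over the 5 groups.

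FMO1, which makes N-hydroxypipecolic acid itself, differed widely between libraries of a group. Its level was 0.391, 0.306 and 17.6 CPM in mock, 0.2, 0.138 and 0.211 at W5, 0.295, 0 and 2.85 at W6, 0.148, 3.91 and 8.02 at W7, and 8.32, 18.7 and 11.1 at W8. The counts behind these were 7, 6 and 386 in mock, 4, 3 and 4 at W5, 6, 0 and 52 at W6, 3, 86 and 149 at W7, and 184, 399 and 202 at W8. Mock replicate 3 lay within the W8 range, while mock replicates 1 and 2 lay near W5. The group means were 6.1 ± 9.97 CPM in mock, 0.183 ± 0.0397 at W5, 1.05 ± 1.57 at W6, 4.03 ± 3.94 at W7 and 12.7 ± 5.4 at W8. The nearest other place in the genome to its transcript was AT5G45180, at 72.2% identity over 586 aligned bases.

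UGT76B1, which removes active N-hydroxypipecolic acid by adding glucose, had 0, 1 and 29 counts in mock, 1, 1 and 0 at W5, 28, 1 and 20 at W6, 22, 53 and 143 at W7, and 115, 229 and 134 at W8. No W5 library had more than 1 count, and all W7 libraries were above all W5 libraries. The group means were 0.458 ± 0.75 CPM in mock, 0.032 ± 0.0278 at W5, 0.84 ± 0.701 at W6, 3.73 ± 3.5 at W7 and 7.76 ± 2.8 at W8. W7 replicate 3 lay within the W8 range, and the W8 libraries were above all libraries of mock, W5 and W6.

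LLP1, the lectin of systemic immunity, was the most abundant of the 5. It stood at 7.71, 6.89 and 28.1 CPM in mock, 14.4, 10.1 and 11.7 at W5, 37, 7.14 and 22 at W6, 14.6, 39.3 and 72.3 at W7, and 138, 195 and 113 at W8. The lowest W8 library was above the highest library of every other group. The group means were 14.2 ± 12 CPM in mock, 12 ± 2.16 at W5, 22 ± 14.9 at W6, 42.1 ± 28.9 at W7 and 149 ± 42 at W8. LLP1 overlaps AT5G03345 on the opposite strand and keeps 95.3% of its exon bases to itself. That neighbour stood at 21.2 ± 1.63 to 23.2 ± 0.697 CPM over the 5 groups. The closest match to its transcript elsewhere in the genome, a stretch annotated to both LLP2 (AT3G16530) and AT3G16525, shared 76.2% identity over 856 aligned bases. LLP2 stood at 133 ± 7.93 CPM in mock and 167 ± 20.5 at W8.

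**Figure D2:**
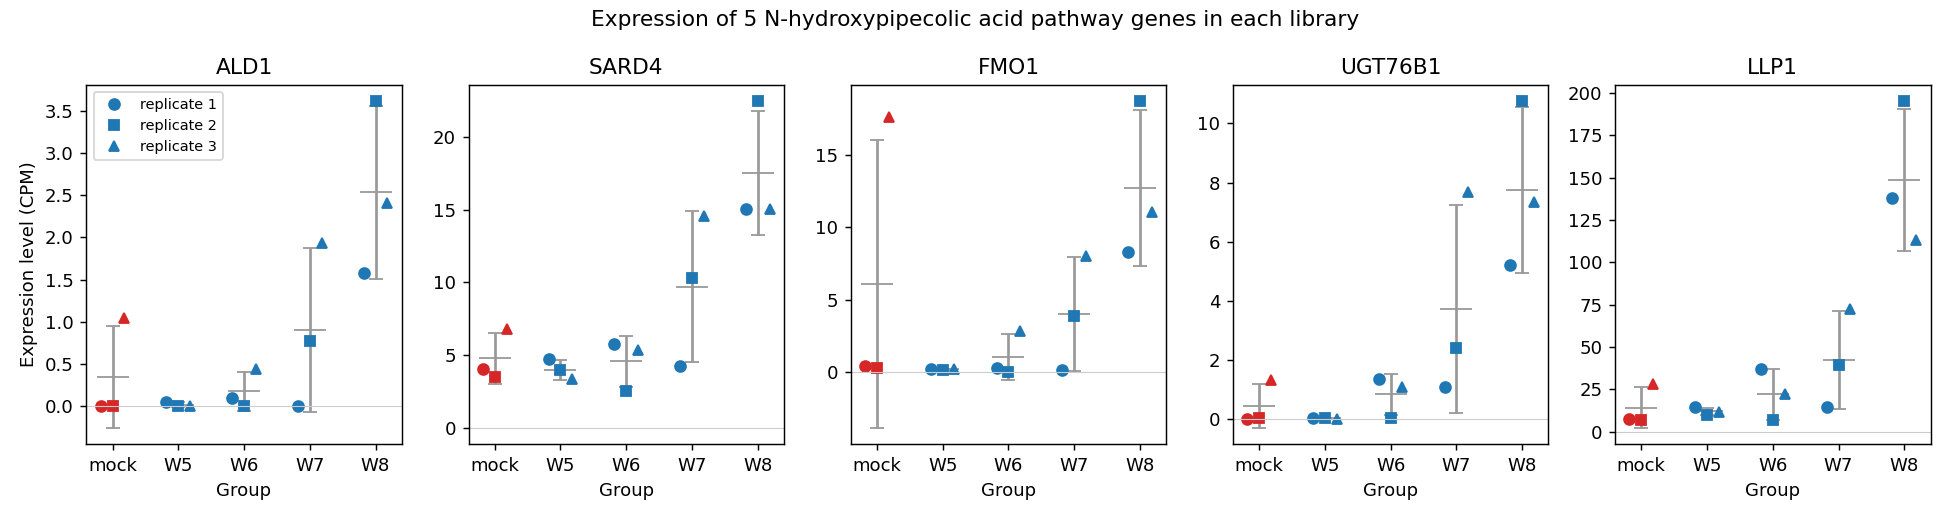
Expression level in CPM of each gene in each of the 15 libraries, by group, with mock in red and inoculated groups in blue. Marker shapes give the replicate number, and grey bars give the mean and SD of 3 libraries. Mock replicate 3 is the highest mock library for all 5 genes, and for FMO1 its 17.6 CPM lies within the W8 range of 8.32 to 18.7 CPM.

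Per kilobase of exon, the order of levels at W8 was LLP1 at 140 ± 39.6 CPM per kb, SARD4 at 12.9 ± 3.16, FMO1 at 6.63 ± 2.82, UGT76B1 at 4.49 ± 1.62 and ALD1 at 1.61 ± 0.65. At W5 the same measure was 11.4 ± 2.03 for LLP1, 2.95 ± 0.509 for SARD4, 0.0956 ± 0.0207 for FMO1, 0.0185 ± 0.0161 for UGT76B1 and 0.0106 ± 0.0184 for ALD1. Transcripts for the first and last steps of synthesis were at or near 0 at the lowest density, while that of the middle step was not.

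The series asks how bacterial load affects the response of the plant, and all 5 genes rose with density among inoculated plants. This slope on log10 density used the 12 inoculated libraries and no mock library. ALD1 rose by 1.96 ± 0.35 log2 units per 10-fold density (SE; adjusted p = 0.000717), FMO1 by 1.91 ± 0.37 (adjusted p = 0.00226) and UGT76B1 by 1.84 ± 0.32 (adjusted p = 0.00103). LLP1 rose by 1.21 ± 0.19 (adjusted p = 0.000755) and SARD4 by 0.76 ± 0.13 (adjusted p = 0.00112). P values came from edgeR's quasi-likelihood test with Benjamini-Hochberg adjustment over every gene in the fit, and a call means an adjusted p below 0.05. The p values measure the spread between libraries, each a pool of 2 plants. Among all 19285 genes tested, 19.4% were called with a rising slope. The median slope of the 5 genes was 1.84, against -0.004 over all genes tested. Because the 5 were chosen with earlier results of these data known, the values over all genes are a setting and not a test. Leaving out any 1 of the 12 libraries kept each call, with the highest adjusted p at 0.0113, for FMO1 without W8 replicate 2.

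Between the ends of the density range, W8 against W5, all 5 genes were higher, as were 18.1% of all 19404 genes tested. SARD4 rose by a log2 fold change of 2.13 ± 0.45 (adjusted p = 0.00371) and LLP1 by 3.63 ± 0.74 (adjusted p = 0.00357). FMO1 rose by 6.08 ± 2.02 (adjusted p = 0.0406), from 11 counts over the W5 libraries to 785 over the W8 libraries. UGT76B1 went from 2 to 478 counts, a ratio of 235 with a 95% counting interval of 64.7 to 1950 (adjusted p = 0.00408). ALD1 went from 1 to 156 counts, a ratio of 153 with an interval of 27.1 to 6100 (adjusted p = 0.0176). These intervals are exact, cover counting error alone and leave out the spread between plants. FMO1 lost its call without any 1 of the 6 libraries (adjusted p from 0.0572 to 0.113) and without the filter on low counts (0.0522), and ALD1 without any 1 W5 library (0.0645 to 0.0705). In a fit of W5 and W8 libraries alone, which leaves out the mock, W6 and W7 libraries, FMO1 had an adjusted p of 4.38e-05 and ALD1 of 6.27e-06. Both genes passed the filter of that fit through their W8 counts alone, with at most 4 counts of FMO1 and 1 of ALD1 in any W5 library. The fit also leaves out the spread within the other groups, so its p values do not make up for the lost calls. Which of the groups left out made the difference was not tested.

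The comparisons with mock share the same 3 mock libraries. Against mock, SARD4, UGT76B1 and LLP1 were higher at W8, 3 of the 5 genes, where 18.5% of all genes tested were called higher. SARD4 rose by 1.86 ± 0.44 (adjusted p = 0.00678) and LLP1 by 3.36 ± 0.73 (adjusted p = 0.00449). UGT76B1 rose by 3.97 ± 1.09 (adjusted p = 0.0157), but its adjusted p was 0.05 when mock replicate 1 was left out, 0.0561 when replicate 2 was, and 0.0606 in a fit of these groups alone. ALD1 had a log2 fold change of 2.75 ± 1.21 (adjusted p = 0.103) and FMO1 of 1.03 ± 1.29 (adjusted p = 0.587). The W8 libraries were all above all mock libraries for 4 of the 5 genes, FMO1 being the exception, and for 24.3% of all genes. All W8 libraries were above all W5 libraries for 5 of the 5 genes and 25.7% of all genes, and above all W7 libraries for SARD4, FMO1 and LLP1 and 17.8% of all genes. All W7 libraries were above all W5 libraries for UGT76B1 and LLP1 and 16% of all genes.

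Without mock replicate 3, all 5 genes were called higher at W8, as were 20.5% of all genes tested in that fit. FMO1 then had a log2 fold change of 5.17 (adjusted p = 0.0248), from 13 counts in mock replicates 1 and 2 to 785 at W8, a ratio of 36.7 with a counting interval of 21.3 to 69.2. ALD1 passed at an adjusted p of 0.012. It had 0 counts in those mock libraries. With a floor of 3 counts over both in place of 0, its W8 mean was 31.7 times that floor. The exact counting interval of the ratio, which covers counting error alone, began lower, at 25.4. UGT76B1 had 1 count there against 478, a ratio of 290 with an interval of 51.9 to 11500. With W8 replicate 2 left out as well, FMO1 had an adjusted p of 0.0571 and the other 4 genes were called, against 17.4% of all genes called higher.

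**Figure D3:**
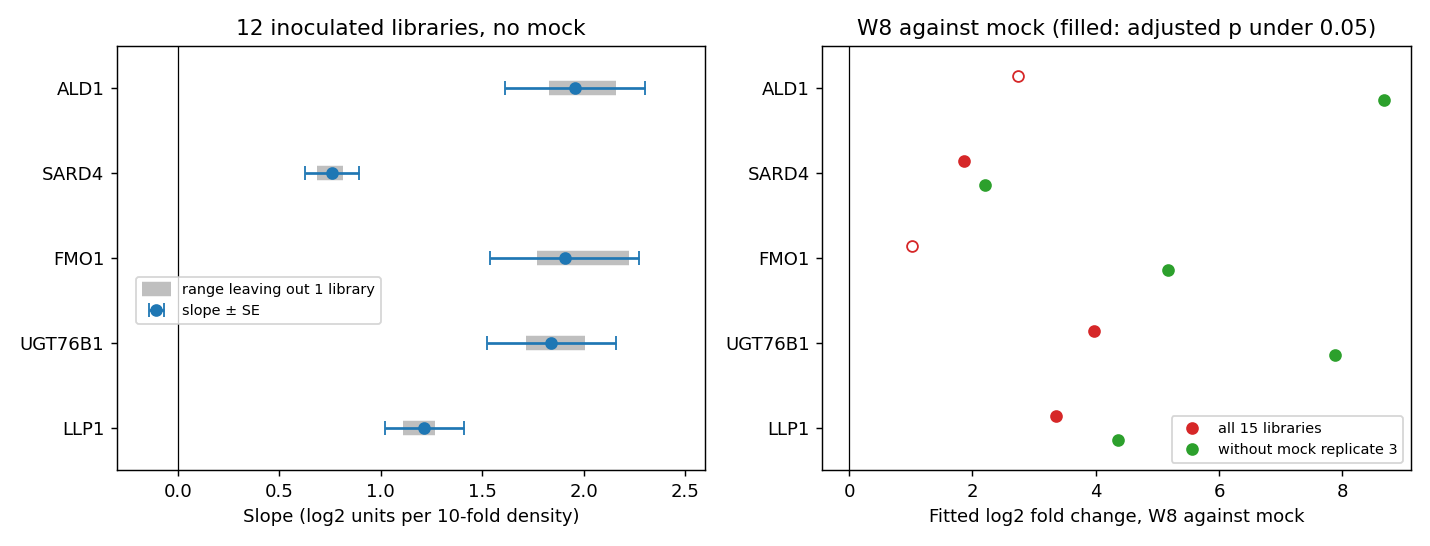
Left, slope on log10 density over the 12 inoculated libraries in log2 units per 10-fold density, with the SE as a line and the range when 1 library is left out as a grey bar. Right, fitted log2 fold change of W8 against mock with all libraries (red) and without mock replicate 3 (green), filled where the adjusted p was under 0.05. FMO1 moves from 1.03 to 5.17, and the green values of ALD1 and UGT76B1 rest on 0 and 1 mock counts.

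At the lower densities none of the 5 genes was called against mock. At W5 and W6 the counts of calls were 0 of 5 with edgeR and 0 with DESeq2, where 0.18% and 1.28% of all genes were called in either direction. Before adjustment, at the same threshold of 0.05, 1 of the 5 passed at W5, FMO1, and 0 at W6. The log2 fold change of FMO1 at W5 was -5.05 with all mock libraries (adjusted p = 0.812) and -0.91 without mock replicate 3 (adjusted p = 0.95). At W7 the count was again 0 with both tools, against 13.1% of all genes called in either direction, and 2 passed before adjustment, SARD4 (log2 fold change 1.00 ± 0.44, adjusted p = 0.172) and UGT76B1 (2.90 ± 1.11, adjusted p = 0.116). UGT76B1 was called at W7 without mock replicate 3 (adjusted p = 0.0255), as were 9.98% of all genes in that direction, and SARD4 without W7 replicate 1 (0.0326). Against W5 in place of mock, UGT76B1 was called at W7 (218 against 2 counts, a ratio of 109 with a counting interval of 29.7 to 902, adjusted p = 0.0427), as were 4.86% of all genes in that direction. That call was lost without any library of the 2 groups but W7 replicate 1 (adjusted p from 0.084 to 0.133), and without the filter (0.0558) or in a fit of these groups alone (0.0598).

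No single step between neighbouring levels was called for any of the 5 genes. By group mean, ALD1 and SARD4 ordered as W5, W6, mock, W7, W8, FMO1 as W5, W6, W7, mock, W8, and UGT76B1 and LLP1 as W5, mock, W6, W7, W8. The place of mock rested on replicate 3. The mean of mock replicates 1 and 2 was 0 CPM for ALD1, 3.8 for SARD4, 0.0255 for UGT76B1 and 7.3 for LLP1, each below the W5 mean, and 0.349 for FMO1, between W5 and W6. Without replicate 3, none of the 5 was called at W5 or W6 against mock, and the lowest adjusted p was 0.385, for UGT76B1 at W6. With all libraries, the lowest adjusted p between neighbours in the orders above was 0.106, for LLP1 from W7 to W8 (log2 fold change 1.83 ± 0.66). The 10-fold steps had 0 of 5 genes called with edgeR and with DESeq2, against 0.289%, 2.62% and 12.1% of all genes called in either direction from W5 to W6, W6 to W7 and W7 to W8. Before adjustment, 0, 1 and 1 of the 5 passed, SARD4 from W6 to W7 and LLP1 from W7 to W8. A test of any difference among the 5 groups called SARD4, UGT76B1 and LLP1 (adjusted p = 0.00781, 0.0106 and 0.00596) and not ALD1 (0.0552) or FMO1 (0.14), where 32.9% of all genes were called. Without mock replicate 3, ALD1 (0.00996) and FMO1 (0.0173) passed that test too, where 36.7% of all genes were called.

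In 3 of the 5 groups the highest library was the same for all 5 genes. Mock replicate 3 was the highest mock library for each of them, W6 replicate 2 the lowest of its group, W7 replicate 1 the lowest and W7 replicate 3 the highest of theirs, and W8 replicate 2 the highest of its own. In W5 the highest library was replicate 3 for FMO1 and replicate 1 for the others, and in W6 it was replicate 3 for ALD1 and FMO1 and replicate 1 for the others. These ranks are a description, with no test. Their coefficient of biological variation in the fit ran from 0.364 for SARD4 through 0.592 for LLP1, 1.13 for UGT76B1 and 1.36 for FMO1 to 1.63 for ALD1, against a median of 0.0918 over all genes. For ALD1, 0.0773% of genes had a higher one. The genes did not keep 1 ratio across libraries. W6 replicate 1 and W7 replicate 1 held 28 and 22 counts of UGT76B1 beside 6 and 3 of FMO1 and 2 and 0 of ALD1. W6 replicate 3 held 20 counts of UGT76B1 beside 52 of FMO1 and 8 of ALD1.

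Mock replicate 3 had all 5 transcripts above the other mock libraries, but not to the same share of the W8 level. FMO1 there was at 139% of its W8 mean, ALD1 at 41.4%, SARD4 at 38.9%, LLP1 at 18.9% and UGT76B1 at 17.1%. On log2 CPM, FMO1 exceeded the mean of mock replicates 1 and 2 by 5.31, a difference that 0.155% of genes surpassed. Genes chosen after their values were seen give the setting. PBS3 (AT5G13320), an enzyme of salicylic acid synthesis, stood in mock replicate 3 at 107% of its W8 mean, WRKY33, a transcription factor of the immune response, at 91.9%, and ICS1, the first enzyme of the main salicylic acid route, at 88.1%. The salicylic acid hydroxylase gene DLO1 stood at 6.91% and PR1, a classic output of salicylic acid signalling, at 1.21% of its W8 mean. These shares do not subtract the level in the other mock libraries. Mock replicates 1 and 2 averaged 1.69 CPM for PBS3, 27.6 for WRKY33 and 26.6 for ICS1, against 23.7, 110 and 52.6 in replicate 3. For DLO1 the values were 0.214 and 0.913 CPM, and for PR1 0 and 0.913. The regulator gene CAMTA1 stood at 100% with 79.1 and 79.2 CPM. What set this library apart from the other mock libraries was not tested.

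**Figure D4:**
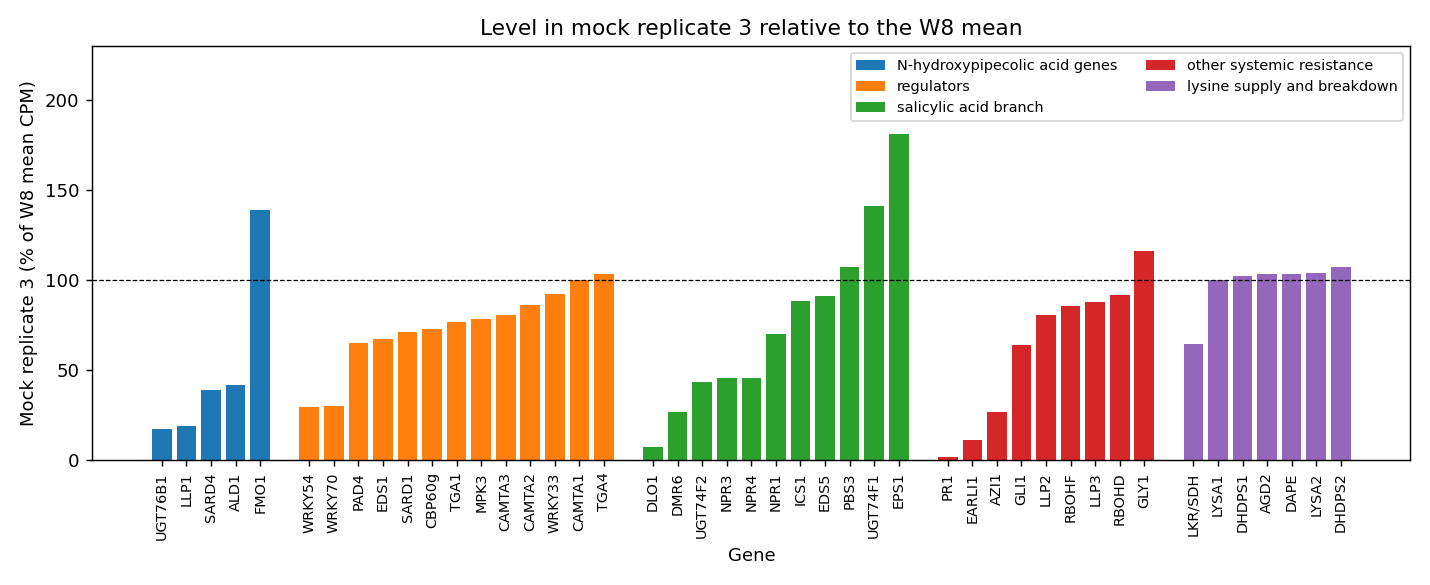
Level of each gene in mock replicate 3 as a percentage of its mean CPM in the 3 W8 libraries, grouped by list, with the dashed line at 100%. FMO1 is at 139%, while UGT76B1 and LLP1 are at 17.1% and 18.9% and PR1 is at 1.21%. The percentages do not subtract the level in the other mock libraries.

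Likeness of pattern was measured as the root mean square difference between 2 genes over the 15 libraries, after each gene's log2 CPM was centred on its own mean. Of 16509 genes compared, PBS3 was the closest to both ALD1 (0.539 log2 units) and FMO1 (1.065), where the median gap to all genes was 1.977 and 2.575. PBS3 stood at 9.02 ± 12.7 CPM in mock, 1.51 ± 0.258 at W5, 2.61 ± 1.48 at W6, 8.77 ± 7.87 at W7 and 22.2 ± 8.68 at W8. The next closest was AT5G25260 for ALD1 (0.596) and PCR1 (AT1G14880), named for cadmium resistance in plants, for FMO1 (1.134). SARD4 was closest to the receptor-like kinase gene RK3 (AT4G21380; 0.262) and to AT1G24145 (0.265), with a median gap of 0.936. UGT76B1 was closest to the wall-associated kinase gene WAK3 (AT1G21240; 0.813) and to LURP1 (AT2G14560; 0.873), with a median gap of 2.449. LLP1 was closest to PCC1 (AT3G22231; 0.354) and AT3G22235 (0.362), with a median gap of 1.562. Among the 5 genes themselves the gap was smallest between SARD4 and LLP1 (0.7) and between ALD1 and LLP1 (0.784), and it was 0.866 between ALD1 and FMO1. Of genes outside the 5, 10 were closer to ALD1 than LLP1 was, and 18 were closer than FMO1 was. For SARD4, 892 were closer than LLP1 was. The largest gap was 1.803, between SARD4 and FMO1, and 16502 of the 16509 genes were closer to SARD4 than FMO1 was. The measure counts differences in the size of change as well as in its shape.

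Of 13 regulators listed, 9 were higher and 0 lower at W8 against mock, where 18.5% of all genes were called higher and 17% lower, with a median log2 fold change of 0.697 against -0.003 over all genes. The 3 with the smallest p were MPK3, a kinase of pattern-triggered immunity (0.61 ± 0.096, adjusted p = 8.8e-05), EDS1, a lipase-like hub of immune signalling (0.70 ± 0.11, adjusted p = 0.000115), and CAMTA3, a repressor of SARD1 and CBP60g (0.46 ± 0.08, adjusted p = 0.000189). EDS1 stood at 22.8 ± 1.93 CPM in mock, 19.9 ± 2.69 at W5, 18.8 ± 1.4 at W6, 23.4 ± 3.28 at W7 and 36.9 ± 4.5 at W8. Without mock replicate 3, 11 regulators were called, all higher, beside 20.5% of all genes. In the slope on density, 10 of 13 rose and 0 fell, against 19.4% of all genes called rising and 15.4% called falling. SARD1, a transcription factor of the pathway named here for its role, was among those not called at W8 against mock with all libraries (1.77 ± 0.80, adjusted p = 0.113). Its level was 20 CPM in mock replicate 3, against a mean of 2.15 in mock replicates 1 and 2 and 28.1 ± 8.32 at W8.

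Of 11 genes of the salicylic acid branch, 6 were higher and 2 lower at W8 against mock, beside 18.5% and 17% of all genes, and the list median was 1.154. The 3 not called were ICS1, EDS5 and PBS3, named here for their part in synthesis (adjusted p = 0.0758, 0.225 and 0.328). EPS1, also of synthesis, was lower (-0.77 ± 0.18, adjusted p = 0.00203). UGT74F2, which attaches glucose to salicylic acid, stood at 68.4 ± 6.76 CPM in mock and 174 ± 15.8 at W8, a rise of 1.35 ± 0.083 on the log2 scale (adjusted p = 1.23e-09). All 3 listed receptors of that hormone were higher, NPR4 by 1.15 ± 0.098 (adjusted p = 6.22e-08), NPR1 by 0.67 ± 0.081 (adjusted p = 4.64e-06) and NPR3, added to complete the receptors, by 1.49 ± 0.16 (adjusted p = 9.4e-06). UGT74F2 was the single listed gene called at W6 (0.51, adjusted p = 0.00135). Without mock replicate 3, 8 were higher and 2 lower, beside 20.5% and 17.8% of all genes, and in the slope 9 rose and 1 fell, beside 19.4% and 15.4%.

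Of 11 other genes tied to systemic resistance, 9 passed the filter on low counts, DIR1 and LECRK-VI.2 being the ones that did not. Those genes had 0 counts in every library, and the reason was not tested. Of the 9, 6 were higher and 1 lower at W8 against mock, beside 18.5% and 17% of all genes. The lipid-transfer genes AZI1 and EARLI1, neighbours that may share reads, rose by 1.98 ± 0.11 (adjusted p = 5.04e-09) and 3.16 ± 0.31 (adjusted p = 2.16e-05). GLI1, a glycerol kinase gene, rose by 0.72 ± 0.066 (adjusted p = 1.57e-07). The lectin relatives of LLP1, named here for that kinship, gave values of 0.33 ± 0.24 for LLP2 and 0.62 ± 0.44 for LLP3 (adjusted p = 0.325 and 0.317), beside 3.36 ± 0.73 for LLP1.

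Of 7 listed genes around lysine, the starting material, 1 was higher and 4 lower at W8 against mock, with a median of -0.224, where 18.5% of all genes were called higher and 17% lower. Without mock replicate 3, 1 was higher and 5 lower, with a median of -0.3, beside 20.5% and 17.8% of all genes. The rising gene was LKR/SDH, whose enzyme breaks lysine down by another route than ALD1 (1.04 ± 0.18, adjusted p = 0.000837), from 19.3 ± 5.46 to 39.7 ± 3.06 CPM. LYSA1, a decarboxylase gene at the last step of lysine synthesis, had a log2 fold change of -0.28 ± 0.09 (adjusted p = 0.0185), and DHDPS2, at its entry step, one of -0.28 ± 0.093 (adjusted p = 0.0231). Both lost their calls without mock replicate 1 (0.0672 and 0.1), mock replicate 2 (0.145 and 0.0991) or W8 replicate 3 (0.0805 and 0.119), and LYSA1 also without W8 replicate 2 (0.0526) or in a fit of these groups alone (0.0918). AGD2, an aminotransferase gene of lysine synthesis on this list, was also the closest match to the ALD1 transcript elsewhere in the genome, at 70.8% identity over 192 aligned bases.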

How the data were processed

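Poly-A RNA from 15 libraries was sequenced, and the authors deposited a table of read counts per gene. The build TAIR10 and the tools featureCounts 1.22.2 and cutadapt 1.9.1 are named in the submitters' processing notes. For the aligner, the strand setting and the annotation, no source used here gives a name. The deposited counts were tested with edgeR 4.0.16 (R 4.3.3, limma 3.58.1): TMM scaling, filterByExpr (minimum count 10, total 15), the quasi-likelihood F test over 1 fit of all libraries, and Benjamini-Hochberg adjustment over 19404 genes, with 13429 removed. All 5 members passed the filter. The density slope was fitted to the 12 inoculated libraries over 19285 genes. The code was tested on simulated data. For the likeness of patterns, log2 CPM had a prior count of 2, and genes had a mean log2 CPM of at least 1. Counting intervals are exact 95% intervals and cover counting error only.

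Named genes were the 5 members, the 2 nearest genes to each, and the 3 genes of each list with the smallest p at W8 against mock; others named are said to be chosen otherwise. The members and lists were chosen with earlier results of these data known. Sequence and coordinates came from RefSeq TAIR10.1, read by gene ID, and transcripts were compared with BLAST 2.17.0 (E value 1e-05). Alternatives were DESeq2 1.42.0, its size factors in edgeR, no filter, a replicate block, fits of the compared groups alone and leaving out libraries.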

Additional observations from a re-analysis of the deposited data

How the results depend on the processing

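Of 708 values of the 5 genes under alternative settings, 651 kept their direction and their side of the threshold, 21 lost a call, 16 gained one and 20 changed sign. The replicate numbers were not treated as pairs, since 6 of 27 correlations between same-numbered libraries were over 0.1 (range -0.305 to 0.32). A library correlated best with its own number in 28 of 54 lookups, where unrelated numbers would give 18, which is a hint from the data and not from the design. With the replicate block, ALD1 at W8 against mock was called (log2 fold change 3.47, adjusted p = 0.0263, edgeR), 0 of the 5 genes were called at W7 against W5, and 5 in the test of any difference. At W7 against W5, no filter and a fit of the compared groups alone also gave 0, and DESeq2 gave 2.

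Signs changed mainly in comparisons with mock. Without mock replicate 3 and W8 replicate 2 together, the log2 fold changes at W5 against mock were 1.86 for ALD1, 0.0837 for SARD4, 0.26 for UGT76B1 and 0.73 for LLP1. At W6 they were 4.81 for ALD1, 0.26 for SARD4 and 1.51 for FMO1, and at W7 3.50 for FMO1, where 1 of the 5 genes was called. The fitted values of ALD1 and UGT76B1 rest on 0 and 1 mock counts and are not bounds. With 1 library left out, values at W5 against mock ran from -5.93 to 1.86 for ALD1, -0.46 to 0.0777 for SARD4, -4.20 to 0.25 for UGT76B1 and -0.60 to 0.72 for LLP1. At W6 against mock they ran from -2.80 to 4.81 for ALD1, -0.30 to 0.26 for SARD4, -5.38 to 1.50 for FMO1 and -0.0161 to 1.59 for LLP1. At W6 against W5 they ran from -0.0253 to 0.48 for SARD4 and -0.32 to 3.04 for FMO1, and at W7 against mock from -1.59 to 3.50 for FMO1.

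With 1 library left out, the number of the 5 genes called ran from 0 to 1 at W7 against mock, 0 to 2 at W7 against W5, 2 to 5 at W8 against mock, 3 to 4 at W8 against W5 and 3 to 5 for any difference. All genes called ran from 15 to 60 (W5 against mock), 147 to 469 (W6 against mock), 1120 to 3865 (W7 against mock), 26 to 80 (W6 against W5), 39 to 1153 (W7 against W6), 1038 to 2156 (W8 against W7) and 684 to 1194 (W7 against W5). Fits of the compared groups alone called 14 genes at W5 and 145 at W6 against mock, 122 at W6 and 2279 at W7 against W5. DESeq2 called 58 at W5 against mock, 114 at W6 against W5 and 1052 at W7 against W6. Without both libraries, 78, 577 and 4158 genes were called at W5, W6 and W7 against mock, 137 at W6 against W5, 1424 at W7 against W6 and 2279 at W7 against W5. The cause of these changes was not tested. For ALD1, UGT76B1 and FMO1, 6, 9 and 7 of the 15 libraries held 10 or more counts. Their coefficients of biological variation, 1.63, 1.13 and 1.36, were also the highest of the 5 genes. The parts of depth and of spread between libraries in their changed calls were not tested.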
